A study of Mus musculus with 6 samples.

Results

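Matricellular proteins are secreted into the extracellular matrix, where they alter how cells attach, spread and respond to growth factors more than they add mechanical strength. The 10 genes described here are Sparc and its relative Sparcl1, periostin (Postn), tenascin C (Tnc), the thrombospondins Thbs1 to Thbs4, fibronectin (Fn1) and osteopontin (Spp1). They were looked up by symbol in a table of 45703 genes, and all 10 were found. RNA sequencing covered 6 replicate cultures, each grown for 7 days from dorsal root ganglia of wild-type C57BL/6 mice aged 4 to 6 weeks. The ganglia hold sensory neurons with their glia. Cells from enzyme-digested ganglia grew on poly-L-lysine; the medium held 10% serum, EGF at 10 ng/ml and FGF at 10 ng/ml, and each sample pooled RNA from 2 dishes. All cultures belonged to a single group with no untreated or alternative condition, so the comparisons run between genes within a library and between replicate cultures.

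In peripheral nerve, fibronectin forms fibrils that cells grip through integrins. Periostin and tenascin C bind to such fibrils and to collagen, and both are known from nerve repair. SPARC binds collagen and calcium. Thrombospondins are multidomain glycoproteins. Thbs1 and Thbs2 assemble as trimers and are known as inhibitors of blood vessel growth, while Thbs3 and Thbs4 assemble as pentamers. Osteopontin is an acidic phosphoprotein that binds integrins and Cd44, and macrophages, fibroblasts and Schwann cells are among its known sources.

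The libraries held from 20070639 to 22968642 counts, and a CPM (count scaled to the library total) of at least 1 was reached by 14481 to 15135 genes per library. Markers of the glial lineage (Sox10, Erbb3 and Cdh19) summed to 2694 ± 356 CPM and 4 neuronal markers to 1003 ± 281 CPM (SD, n = 6), so transcripts of both cell classes of the ganglion were present. The 6 fibroblast markers, all at 1 CPM or more in every library, summed to between 3338 CPM in replicate 1 and 13967 CPM in replicate 5. Replicates 1 and 5 stood at opposite ends for several results below. In bulk RNA from mixed cultures, fewer cells of a type and less RNA per cell cannot be told apart. The labels call the cultures biological replicates, without naming the animals, and tests measure the spread between these 6 samples.

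The start regions of 5 genes are printed to set the genes that kept a steady level (Sparc and Postn) beside genes that were lowest in replicate 1 and highest in replicate 5 (Spp1, Thbs2 and Thbs3). Each window runs from 250 bases before to 50 bases after an annotated RefSeq transcript start on GRCm38.p6, 5′ to 3′ on the strand of the gene. Capitals mark any of 5 motifs searched on both strands, namely the core promoter element TATAAA, the upstream promoter element CCAAT, the AP-1 motif TGAGTCA, the TEAD motif GGAATG and the RUNX motif AACCACA.
Sparc (chr11:55420031-55420330, minus strand): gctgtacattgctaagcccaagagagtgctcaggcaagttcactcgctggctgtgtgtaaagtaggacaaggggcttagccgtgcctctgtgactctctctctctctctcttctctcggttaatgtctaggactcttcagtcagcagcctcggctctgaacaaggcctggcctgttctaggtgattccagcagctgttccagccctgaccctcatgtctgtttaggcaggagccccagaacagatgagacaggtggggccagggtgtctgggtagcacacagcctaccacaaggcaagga
Postn (chr3:54360857-54361156, plus strand): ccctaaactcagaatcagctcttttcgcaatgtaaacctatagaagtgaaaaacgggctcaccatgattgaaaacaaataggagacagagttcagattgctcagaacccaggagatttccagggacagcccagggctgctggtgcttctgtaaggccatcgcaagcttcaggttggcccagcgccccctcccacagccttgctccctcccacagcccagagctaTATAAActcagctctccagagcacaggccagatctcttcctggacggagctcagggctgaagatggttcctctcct
Spp1 (chr5:104434861-104435160, plus strand): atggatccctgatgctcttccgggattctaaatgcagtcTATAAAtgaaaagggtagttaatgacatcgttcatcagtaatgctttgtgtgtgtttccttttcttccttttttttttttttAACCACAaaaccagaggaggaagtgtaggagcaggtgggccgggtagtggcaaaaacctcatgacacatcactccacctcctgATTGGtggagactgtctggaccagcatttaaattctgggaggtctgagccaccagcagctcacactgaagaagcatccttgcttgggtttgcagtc
Thbs2 (chr17:14694213-14694512, minus strand): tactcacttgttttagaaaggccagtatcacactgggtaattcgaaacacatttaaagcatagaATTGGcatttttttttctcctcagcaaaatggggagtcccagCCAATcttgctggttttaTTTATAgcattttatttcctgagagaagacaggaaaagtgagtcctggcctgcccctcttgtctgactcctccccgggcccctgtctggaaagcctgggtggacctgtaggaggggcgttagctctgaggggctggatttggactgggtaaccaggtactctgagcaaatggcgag
Thbs3 (chr3:89214930-89215229, plus strand): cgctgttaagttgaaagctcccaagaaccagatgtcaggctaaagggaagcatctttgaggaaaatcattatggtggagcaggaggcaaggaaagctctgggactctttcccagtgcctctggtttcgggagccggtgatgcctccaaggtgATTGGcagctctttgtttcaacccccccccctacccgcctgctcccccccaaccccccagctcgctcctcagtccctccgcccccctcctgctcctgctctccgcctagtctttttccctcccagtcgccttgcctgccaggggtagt

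RefSeq windows were matched for 7 of the 10 genes, 10 windows in all, and no entry was matched for Fn1, Thbs1 and Sparcl1. The Spp1 window held a RUNX match that began 129 bases before the start and a CCAAT match that began 46 bases before it, with a TATAAA match farther away at 211 bases. Among 32851 windows of this length, 5.27% held the RUNX letters and 37.4% the CCAAT letters. The TATAAA letters began 26 bases before the start in the printed Postn window, and 13.6% of all windows held them. The Thbs2 window held TATAAA once, on the opposite strand, and CCAAT at 2 places. Thbs3 had a single CCAAT match, 98 bases before the start. None of the 5 motifs occurred in the Sparc window. The AP-1 letters, present in 5.2% of all windows, occurred in 0 of the 10 windows, and the TEAD letters, present in 14.7%, occurred only in that of Thbs4, at 2 places that share a base. The matches are a description of these letters and do not show binding. Another window each of Postn and Spp1, and those of Tnc and Thbs4, were searched in the same way and are not printed. The unprinted Postn window lies at the gene start, 54359267, and the printed one at a start farther inside the gene. The unprinted one held CCAAT, 24 bases after the start, and no TATAAA. The unprinted Spp1 window held none of the 5 motifs, and both Tnc windows held TATAAA. For Postn and Spp1 the letters found thus depended on the window chosen.

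Sparc was the highest of the 10 genes in every library, and its level hardly differed between cultures. The gene (GeneID 20692, chromosome 11, 55394159 to 55420080, minus strand, GRCm38.p6, as for all positions here) was counted at 9118, 9572, 8314, 9022, 7954 and 9515 CPM in replicates 1 to 6. The lowest and highest libraries differed 1.20-fold. Per kilobase of combined exon length, the scale on which genes can be compared, it reached 3311 ± 242 CPM (SD, n = 6), and 0 other genes at 1 CPM or more in all libraries were higher. Some of its counts were fractional in 4 libraries, so a part of its reads may be shared with other places in the genome.

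Sparcl1, which encodes a longer relative of SPARC, was far less abundant and ran the other way across cultures from most of the genes below. The gene (GeneID 13602, chromosome 5, 104079108 to 104114088, minus strand) was counted at 453, 370.2, 238, 246, 210.3 and 266 CPM in replicates 1 to 6. It was highest in replicate 1 and lowest in replicate 5, a 2.16-fold range. Sparc exceeded it per kilobase by 25.5-fold in replicate 1 and by 48.0-fold in replicate 5.

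Postn, a matrix protein of tendon, bone and injured tissue, came second among the 10 genes. It lies on chromosome 3 (GeneID 50706, 54359267 to 54391041, plus strand) and had 3305, 3919.8, 4468, 4459, 3996 and 4784 CPM in replicates 1 to 6. Replicate 1 was lowest and replicate 6 highest, with a 1.45-fold range. Per kilobase its level was 1220.0 ± 155 CPM (SD, n = 6), and 5 genes detected in all libraries were higher. The ratio of Sparc to Postn per kilobase stayed between 2.35 and 3.49. With the longest GENCODE transcript of Postn, 5223 bases in place of 3406, its level per kilobase was 796 CPM.

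Tnc, which encodes the hexameric anti-adhesive glycoprotein tenascin C, followed another order of cultures. The gene (GeneID 21923, chromosome 4, 63959785 to 64047015, minus strand) was counted at 1959, 1593, 1184, 1563, 1965 and 1095 CPM in replicates 1 to 6. It was almost equally high in replicates 1 and 5, the cultures that stood farthest apart for Fn1 and Spp1, and low in replicates 3 and 6. The tenascin relative Tnn, named after its values were seen, was likewise highest in replicates 1 and 5 and lowest in replicate 6, at 25.3, 24.7 and 13.1 CPM. The other tenascins on the list of relatives, Tnxb and Tnr, did not share that order. Tnxb was lowest in replicate 1, at 14.1 CPM. Tnr was highest in replicate 3, at 8.45 CPM, against 4.22 CPM in replicate 5. The mean of Tnc per kilobase was 212 ± 50.1 CPM (SD, n = 6).

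**Figure D1:**
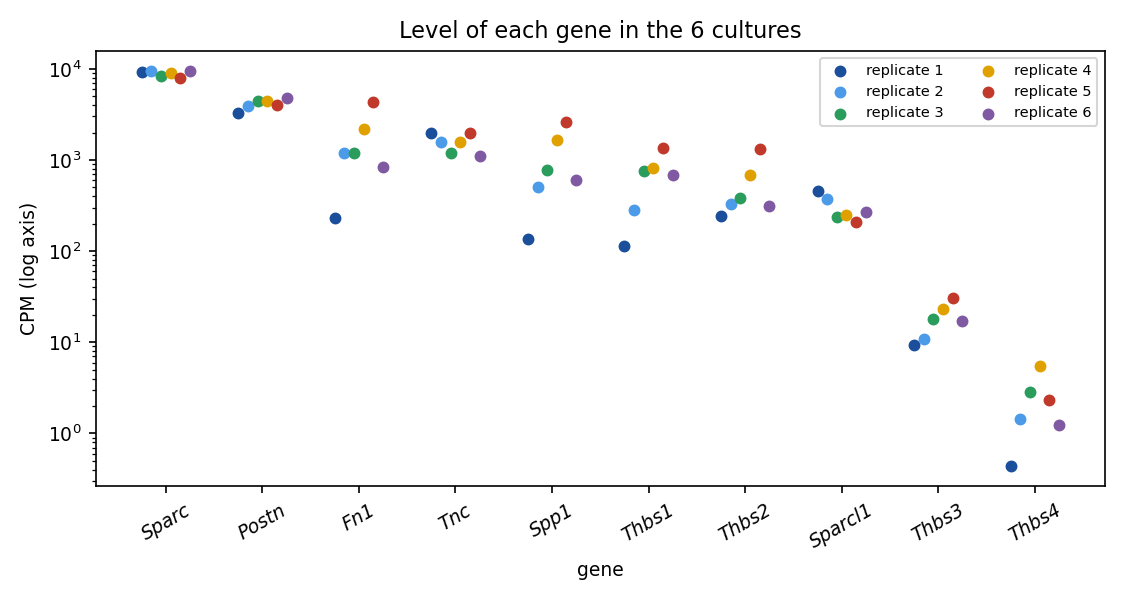
Level of each of the 10 genes in CPM (log axis), 1 coloured point per replicate culture, genes ordered by mean. Sparc stayed between 7954 and 9572 CPM, whereas Spp1 had 136 CPM in replicate 1 against 2596 CPM in replicate 5.

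Fn1 differed between cultures far more than the preceding genes. It encodes fibronectin, the protein onto which several of the other products bind, on chromosome 1 (GeneID 14268, 71585473 to 71653280, minus strand). Its level was 233, 1180.2, 1197, 2173, 4349 and 831 CPM in replicates 1 to 6. Replicate 1 stood lowest and replicate 5 highest, 18.6-fold apart. Among the other 4 cultures the range was 2.62-fold. The table gives 1 value per gene, so the spliced forms of fibronectin and of tenascin C were not resolved.

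Spp1, encoding osteopontin, followed almost the same order. The gene (GeneID 20750, chromosome 5, 104435111 to 104441053, plus strand) had 136, 503, 783, 1644, 2596 and 608 CPM in replicates 1 to 6. Again replicate 1 was lowest and replicate 5 highest, with a range of 19.1-fold, or 3.26-fold without those cultures. Counts were fractional in 2 libraries. Spp1 was above Fn1 per kilobase in all 6 libraries, by 1.65 ± 0.299 on the log2 scale (SD, n = 6). In an exact permutation test that flips the sign of the difference in each library, two-sided, p was 0.0312, the smallest that 6 libraries allow, and 0.0402 after adjustment over the 45 pairs of the 10 genes.

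The trimeric thrombospondins had like mean levels, and both were lowest in replicate 1 and highest in replicate 5. Thbs1 (GeneID 21825, chromosome 2, 118111876 to 118127133, plus strand) was counted at 114, 285, 757, 815, 1350.2 and 692 CPM in replicates 1 to 6. Thbs2 (GeneID 21826, chromosome 17, 14665500 to 14694262, minus strand) had 240.2, 331, 381, 690.1, 1330.2 and 313 CPM. Their ranges were 11.9-fold and 5.54-fold. Without replicates 1 and 5 the ranges were 2.86-fold and 2.20-fold. Per kilobase Thbs1 was below Thbs2 in replicates 1 and 2, where the ratio was 0.480 and 0.870, and above it in the other 4 libraries, up to 2.24-fold in replicate 6. Their mean difference was within the spread between cultures (log2 difference 0.20, SD 0.817, n = 6, with an exact sign-flip permutation p of 0.531 and an adjusted p of 0.556).

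The pentameric thrombospondins were scarce. Thbs3 (GeneID 21827, chromosome 3, 89215180 to 89226841, plus strand) had 9.32, 10.9, 18.2, 23.1, 30.7 and 17.0 CPM in replicates 1 to 6. Its order of cultures was that of Spp1, lowest in replicate 1 and highest in replicate 5, but over a 3.29-fold range. Thbs4 (GeneID 21828, chromosome 13, 92751586 to 92794818, minus strand) had 0.435, 1.46, 2.82, 5.48, 2.34 and 1.24 CPM. These rest on 10 to 110 counts, and the exact Poisson 95% intervals, which cover counting error only, were 0.209 to 0.801 CPM in replicate 1 and 4.50 to 6.61 CPM in replicate 4. Thbs4 was thus lowest in replicate 1 and highest in replicate 4, beyond counting error. Thbs2 exceeded Thbs3 by 4.19 ± 0.442, and Thbs3 exceeded Thbs4 by 2.64 ± 0.671 on the log2 scale per kilobase (SD, n = 6), each with an exact sign-flip permutation p of 0.0312 and an adjusted p of 0.0402.

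Ordered by mean log2 level per kilobase, the genes ran Sparc, Postn, Spp1, Tnc, Fn1, Thbs1, Sparcl1, Thbs2, Thbs3 and Thbs4. All 45 pairs were tested, and 35 differed at an adjusted exact sign-flip permutation p of 0.0402. Sparc stood above Postn by 1.45 ± 0.219 (log2, SD, n = 6) in 6 of 6 libraries, and by 2.29 with the longest GENCODE transcript as the length. The 6 neighbouring pairs from Postn to Thbs2 did not pass the test. Postn over Spp1 was 1.48 ± 1.38 (exact sign-flip permutation p = 0.0938, adjusted 0.108, higher in 5 of 6 libraries), or 0.73 with the longest transcripts (exact permutation, adjusted p = 0.316). Tnc over Fn1 was 0.58 ± 1.44 (exact sign-flip permutation p = 0.469, adjusted 0.502, higher in 4 of 6). The places of Thbs1 and Sparcl1 are not fixed by these data: their difference was 0.07 ± 1.71, and it was -0.24 when the longest GENCODE transcript replaced the combined exon length.

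**Figure D2:**
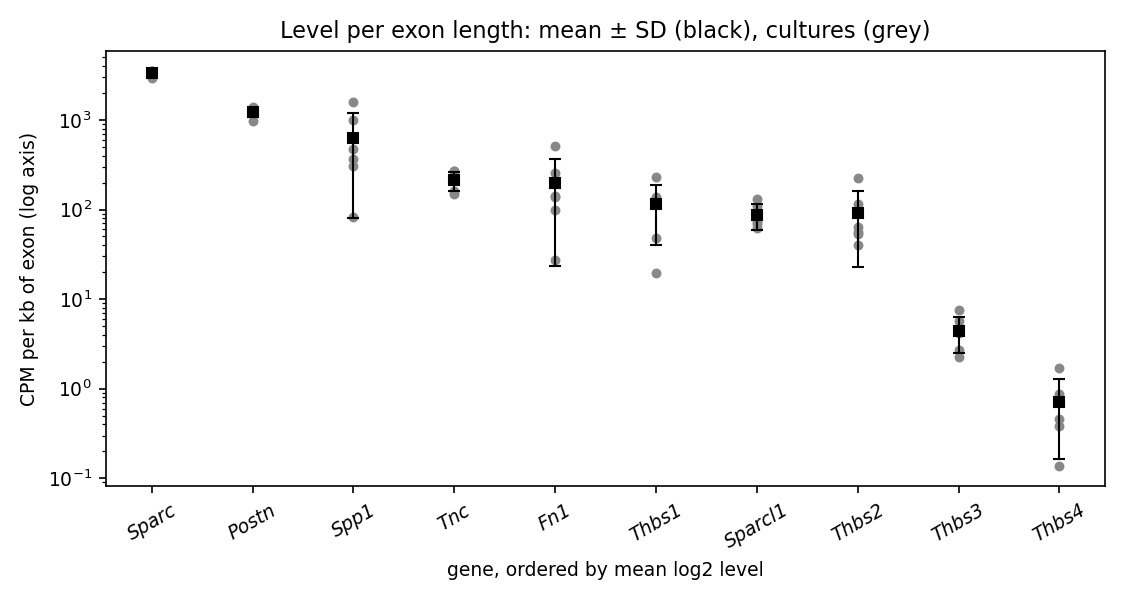
CPM per kilobase of combined exon length (log axis) for the 10 genes, ordered by mean log2 level; grey points are the 6 cultures, black squares and bars the mean ± SD. Sparc, at 3311 ± 242, and Postn, at 1220.0 ± 155, have narrow spreads, whereas the points of Spp1 and Fn1 overlap those of their neighbours.

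The makeup of this set of matrix genes differed between cultures. Together the 10 genes took 1.89% ± 0.291 of counts (SD, n = 6), from 1.56% in replicate 1 to 2.38% in replicate 5. Sparc, Postn and Tnc supplied 92.4% of those counts in replicate 1 and 58.5% in replicate 5. Fn1, Spp1, Thbs1 and Thbs2 supplied 4.64% in replicate 1, 12.9% in replicate 2, 18.0% in replicate 3, 25.8% in replicate 4, 40.5% in replicate 5 and 13.5% in replicate 6. The ratio of Fn1 to Tnc per kilobase was 0.104 in replicate 1 and 1.93 in replicate 5, with the other 4 cultures between 0.645 and 1.21. That of Spp1 to Sparcl1 was 0.617 in replicate 1 and 25.5 in replicate 5. Fn1, Spp1, Thbs1 and Thbs2 were all lowest in replicate 1 and highest in replicate 5. The rise of their joint share between those cultures therefore follows from the grouping and is not a separate result. Both ratios likewise set a gene of that pattern beside a gene without it.

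Spread between cultures was measured for each gene against the whole table. A chi-square test for a departure from scaled library sizes, Benjamini-Hochberg adjusted, called 76.3% of the 14998 genes that passed a filter on low counts. Of the 10 genes, 9 passed the filter and all 9 were called, the weakest being Thbs3 at an adjusted p of 5.56e-74. Thbs4 did not pass it, since it fell short in replicate 1. Abundant genes are called even for small differences, so the biological coefficient of variation (BCV, edgeR's estimate of relative spread between replicates) says more. Its median over the 9 genes was 0.367, against 0.153 over all genes tested.

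By BCV the 9 genes ran from somewhat below the median of all tested genes to near the top. Sparc had 0.132 and Postn 0.149, and 35.6% and 47.0% of tested genes had a lower value. Relative to the trend fitted for genes of like abundance, 44.1% and 62.6% were lower. Tnc had 0.226 and Sparcl1 0.272. Thbs3 reached 0.367, Thbs2 0.537, Thbs1 0.623, Fn1 0.716 and Spp1 0.737. A lower BCV than that of Spp1 was found for 99.3% of tested genes. For genes of the abundance of Spp1 and Fn1 the fitted trend was 0.180 and 0.183.

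Lowest in replicate 1 and highest in replicate 5 was the pattern of 5 of the 9 genes tested (Fn1, Spp1, Thbs1, Thbs2 and Thbs3), and of 12.9% of all tested genes. The reverse, highest in replicate 1 and lowest in replicate 5, held for Sparcl1 and for 7.56% of all tested genes. Both patterns were chosen after the values were seen, and genes are not independent replicates. By the root mean square difference of centred log2 CPM over the 6 libraries, Fn1 and Spp1 differed by 0.273. Thbs2 and Thbs3 differed by 0.405, and Spp1 and Sparcl1 by 1.71. Sparc and Postn were closer than any of these, at 0.200, and Sparc differed from Sparcl1 by 0.334 and from Tnc by 0.362. The measure is not scaled to each gene's spread, so genes with little spread come out close to each other.

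**Figure D3:**
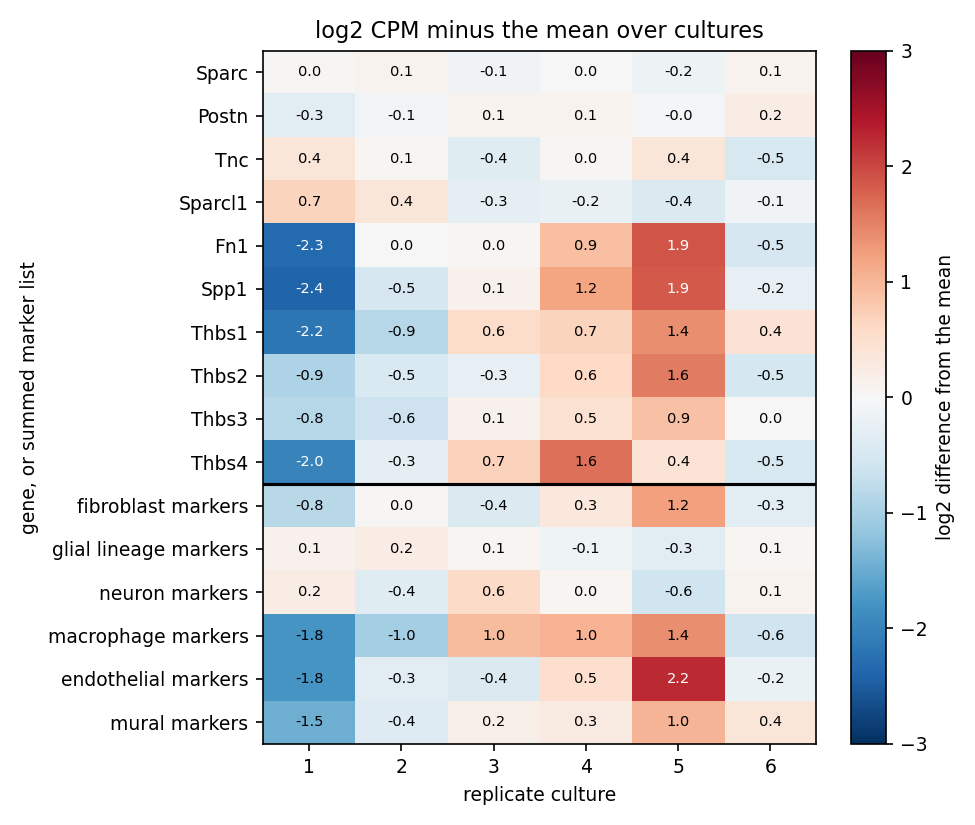
Difference of log2 CPM from the gene's mean over the 6 cultures, for the 10 genes (above the line) and for the summed CPM of 6 lists of cell type markers (below); columns are replicate cultures. Fn1 reads -2.33 in replicate 1 and 1.89 in replicate 5, and Sparc stays between -0.16 and 0.11. The fibroblast, macrophage, endothelial and mural sums are lowest in replicate 1 and highest in replicate 5, which does not hold for every marker in them.

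Among all tested genes, those closest to Fn1 over the 6 libraries were Mgp, which encodes matrix Gla protein, at a root mean square difference of 0.10, Scara3 at 0.107 and Tmem119 at 0.131 (log2). On the TMM scale, Mgp stood at 17.0 CPM in replicate 1 and at 368 CPM in replicate 5. Closest to Spp1 were the chemokine gene Ccl7 at 0.105, Medag at 0.105 and Ebf2 at 0.133. Medag stood at 6.96 CPM in replicate 1 and at 121 CPM in replicate 5. Since these genes were picked for likeness over the same 6 libraries, such values follow from the choice and are not a separate result.

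Markers of other cell types moved between the same cultures, which is given here because matrix genes are made by several of them. The 6 fibroblast markers summed to 3338, 6062, 4429, 7446, 13967 and 4799 CPM in replicates 1 to 6. Most of that sum came from the collagen genes Col1a1, Col1a2 and Col3a1, at mean CPM of 1781, 2694.5 and 1954. Pdgfra, Dcn and Lum had 34.0, 172 and 36.6. The 5 macrophage markers, of which 4 were at 1 CPM or more in every library, summed to 10.8, 18.2, 71.7, 75.7, 97.6 and 24.2 CPM. None of them was at 0, and Aif1 stayed at or below 0.785 CPM. The 5 mural markers (vessel-wall cells) summed to between 271 CPM in replicate 1 and 1510.2 CPM in replicate 5. The 4 endothelial markers, of which 1 was at 1 CPM or more in every library and none at 0, summed to between 6.31 and 100.2 CPM in the same cultures. Single markers did not all follow these sums. Among tested markers, replicate 1 was lowest and replicate 5 highest for 5 of 6 fibroblast and 3 of 4 macrophage genes. The same held for 3 of 5 mural and 1 of 3 endothelial genes, beside 12.9% of all tested genes. The 3 glial markers summed to between 2122 CPM in replicate 5 and 3111 CPM in replicate 2. The 4 neuronal markers summed to between 642 CPM in replicate 5 and 1434 CPM in replicate 3. Lowest in replicate 5 were 3 of 3 glial and 3 of 4 neuronal genes, a share that was not counted over all genes. None of the glial or neuronal genes was lowest in replicate 1 and highest in replicate 5. Apart from the relations that follow, the part of these cell types in the levels of the 10 genes was not tested.

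Relations of the 10 genes to the fibroblast and glial marker levels gave 20 tests across 6 libraries, and 0 passed correction. The marker level was the log2 of the summed CPM, so the fibroblast level mostly follows the collagen genes named above. At an unadjusted exact permutation p under 0.05, 5 passed by Pearson's r. Fn1 with fibroblast markers had r = 0.917 (exact permutation p = 0.0167, adjusted 0.0833) and rho = 0.943 (p = 0.0167, adjusted 0.0833). Leaving out replicates 1 and 5, whose marker levels lay farthest from the median, gave r = 0.787. Thbs2 with fibroblast markers had r = 0.949 (exact permutation p = 0.00556, adjusted 0.0833) and rho = 0.829 (p = 0.0583, adjusted 0.146), and r = 0.723 without those libraries. Spp1 had r = 0.870 (exact permutation p = 0.0347, adjusted 0.139) and rho = 0.771 (p = 0.103, adjusted 0.187), and r = 0.551 without them. Without the 2 libraries farthest from the marker median, here and below, r rests on 4 libraries, and 0 of the 20 relations passed correction. Over all 6 libraries, with the markers summarised by their mean log2 level, which weights each marker equally, Fn1, Thbs2 and Spp1 passed. Their r was 0.980, 0.968 and 0.974 (exact permutation, adjusted p = 0.0278 each).

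With glial markers, Thbs3 had r = -0.928 (exact permutation p = 0.00833, adjusted 0.0833) and rho = -0.943 (p = 0.0167, adjusted 0.0833), and r = -0.888 without replicates 2 and 5. Thbs2 had r = -0.926 (exact permutation p = 0.0125, adjusted 0.0833) and rho = -0.829 (p = 0.0583, adjusted 0.146). Its r was -0.999 (exact permutation, adjusted p = 0.5) over the 4 libraries without replicates 2 and 5. Sparcl1 ran with the glial markers at r = 0.799 (exact permutation p = 0.0625, adjusted 0.142) and rho = 0.886 (p = 0.0333, adjusted 0.111), and r = 0.718 without them. Sparc had a like value with the glial markers, r = 0.783 (exact permutation p = 0.0694, adjusted 0.142) and rho = 0.886 (p = 0.0333, adjusted 0.111). Without replicates 2 and 5 it had r = 0.271 and rho = 0.6. Those 4 libraries are too few to tell whether that relation rests on the replicates left out. Spp1 had r = -0.817 (exact permutation p = 0.0528, adjusted 0.142) and rho = -0.943 (p = 0.0167, adjusted 0.0833), and r = -0.916 without replicates 2 and 5. Over all 6 libraries Postn and Tnc had the smallest Pearson's r, from -0.222 to 0.354 over both lists (exact permutation, adjusted p of at least 0.611). Tnc with fibroblast markers went from 0.354 to 0.879 (exact permutation, adjusted p = 0.741) without replicates 1 and 5. That was above the value of Fn1 over the same 4 libraries. The labels give no culture or sequencing batch, so nothing could be recomputed within batches.

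**Figure D4:**
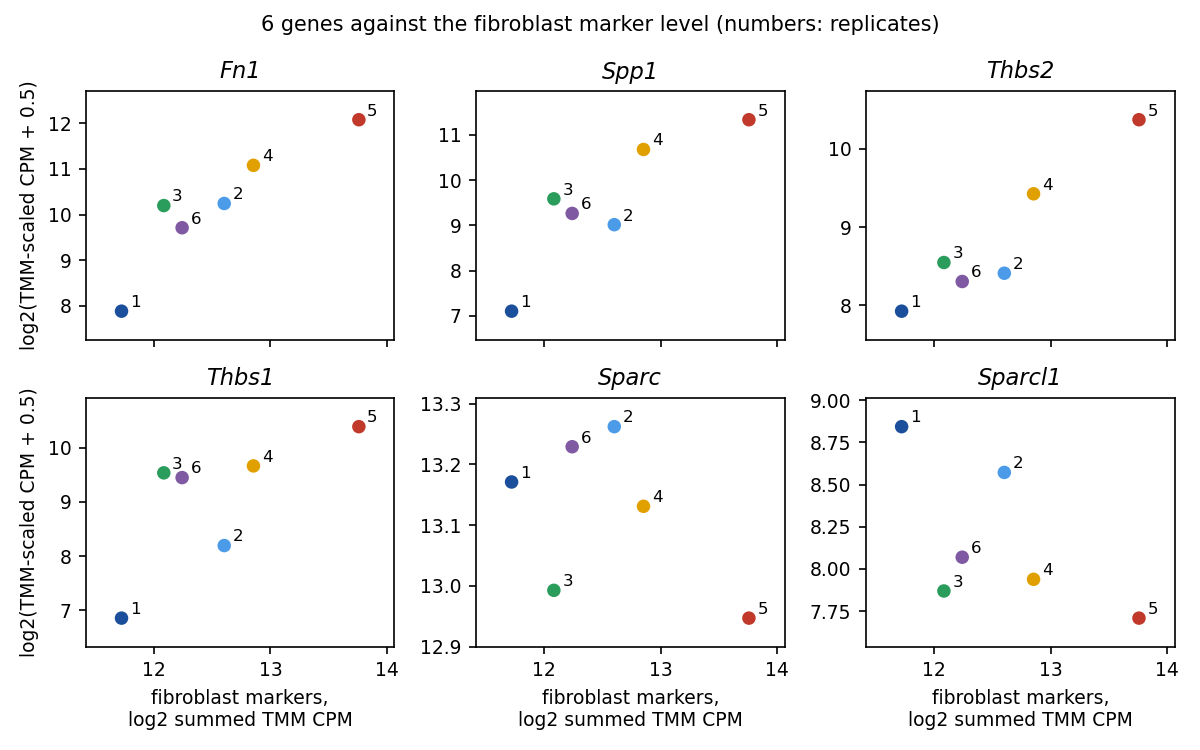
Level of 6 genes, as log2(TMM-scaled CPM + 0.5), against the log2 summed level of 6 fibroblast markers; each numbered point is a replicate culture and each panel has its own vertical axis. Fn1, Spp1 and Thbs2 have replicate 1 at the lower left and replicate 5 at the upper right, and the vertical axis of Sparc covers a far smaller range.

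Other matrix proteins of the same families were taken from a list of 23 relatives. At 1 CPM or more in every library were 17 of them. The highest per kilobase were Fbln2 (fibulin 2, a basement membrane and elastic fibre protein) at 300.4 ± 124 CPM, Fstl1 (a secreted relative of SPARC) at 228 ± 124 CPM and Ccn1 (a matricellular integrin ligand) at 101 ± 49.4 CPM (SD, n = 6). These levels lie near those of Tnc and Thbs1 and far below that of Sparc. Ibsp, a bone sialoprotein, had at most 2 counts in any library, and Ccn6 at most 4.

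All 18 relatives that passed the low-count filter were called by the chi-square test, beside 76.3% of all genes. Lowest in replicate 1 and highest in replicate 5 were 7 of the 18, among them Fstl1, Ccn1 and Ccn2, beside 12.9% of all tested genes. The connective tissue growth factor gene Ccn2, named after its values were seen, ran from 29.1 to 464 CPM between those cultures. Ccn3 ran the other way, with 73.2 CPM in replicate 1 against 22.6 CPM in replicate 5, and was likewise named after its values were seen. The median BCV of the 18 was 0.379.

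Receptors for these proteins had a lower median BCV, 0.201. Of 20 on the list, 19 were at 1 CPM or more in every library, and all 19 were called, again beside 76.3% of all genes. Lowest in replicate 1 and highest in replicate 5 were 7 of the 19, beside 12.9% of all tested genes. As many, 7 of the 19, were lowest in replicate 5, a share that was not counted over all genes. The full reverse, highest in replicate 1 and lowest in replicate 5, held for 1 of the 19, beside 7.56% of all tested genes. The highest per kilobase was Itgb1, the beta chain of the classical fibronectin receptor, at 545 ± 21.8 CPM per kilobase. Its level lay between 2204 and 2424 CPM over the cultures, a 1.10-fold range. Next came Itgb8, a partner of the integrin alpha v chain, at 199.7 ± 33.1 CPM per kilobase. Its level was 706 CPM in replicate 1 against 428 CPM in replicate 5, its highest and lowest cultures. Sdc4, a heparan sulfate proteoglycan that binds fibronectin, followed at 137 ± 24.9 CPM per kilobase (SD, n = 6 for each). Sdc4 was lowest in replicate 5, at 247 CPM, and its counts were fractional in all 6 libraries.

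Lowest among the detected receptors was Itga8, an integrin chain that binds fibronectin and tenascin C, at 1.72 ± 0.417 CPM per kilobase (SD, n = 6). Itgb6, an integrin chain best known from epithelium, had at most 3 counts in every library and was not detectable at this depth. The alpha chain Itga5, which pairs with Itgb1 to bind fibronectin, had 92.5 CPM in replicate 1 against 295 CPM in replicate 5. The thrombospondin receptor Cd36 and the SPARC scavenger receptor Stab1 had wider ranges, with 4.53 CPM for both in replicate 1 against 66.4 and 65.4 CPM in replicate 5. These 3 were named after their values were seen. The macrophage markers, given above, moved between the same cultures, and their part in the levels of Cd36 and Stab1 was not tested.

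**Figure D5:**
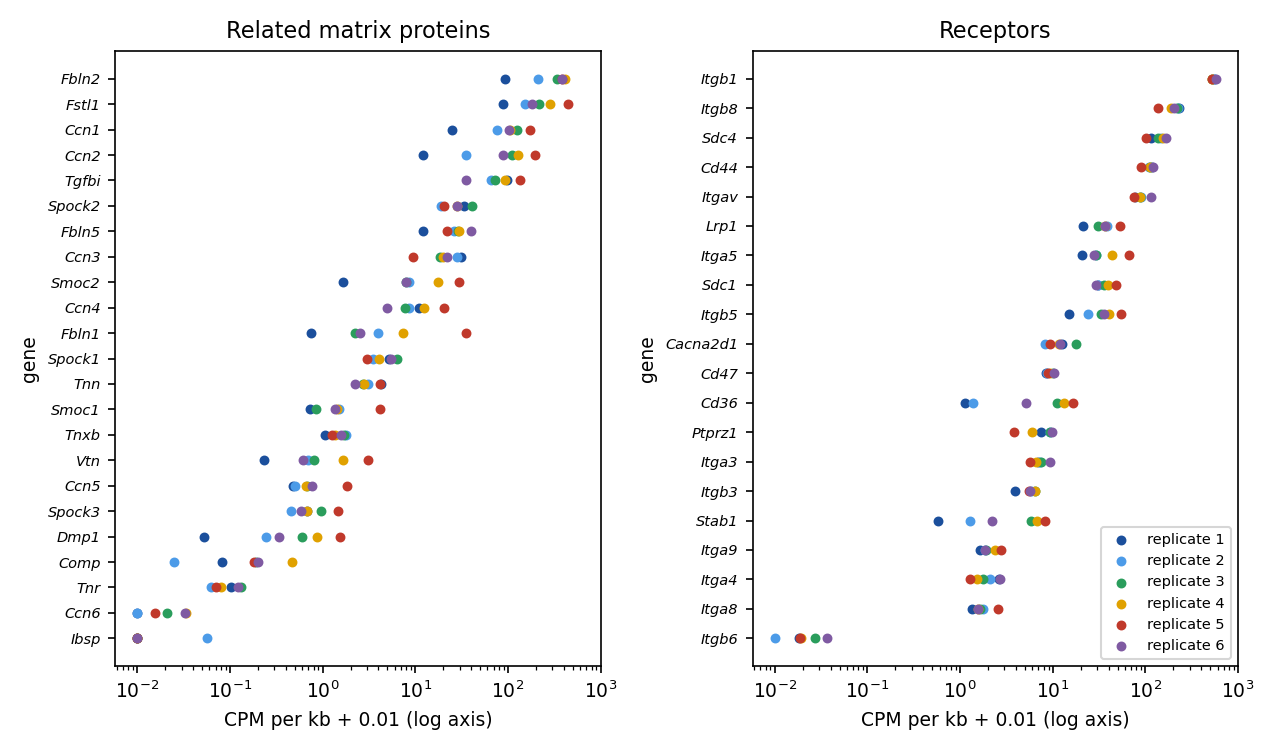
CPM per kilobase, plus 0.01 so that 0 can be drawn on the log axis, of 23 related matrix genes and 20 receptor genes, 1 coloured point per replicate culture, genes ordered by mean. Points of Itgb1 nearly coincide, while Ccn2, Cd36 and Stab1 spread from replicate 1 at the left to replicate 5 at the right.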

How the data were processed

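Poly-A RNA of 6 cultures was sequenced from stranded libraries. The deposited table holds estimated counts per gene without scaling, some of them fractional (13.4% to 14.7% of genes per library). Per the submitters' processing notes, the tools included cutadapt 2.5, STAR 2.7.2b and featureCounts 1.6.4 with build GRCm38.p6; settings for strand and multi-matching reads are not given in the sources used here. Of the 10 genes, 4 overlap a gene on the opposite strand, none of which exceeded 8 counts. The table's exon length, another deposited column, is in bases. No other columns of per-sample values were present.

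CPM used library totals. Fits used counts rounded to whole numbers in edgeR 4.0.16 (R 4.3.3), filterByExpr and TMM scaling; DESeq2 1.42.0 size factors were an alternative. The chi-square test was checked on simulated counts that held counting noise and changes set in a single library. They held no other spread between replicates, so the check does not cover spread of the kind in these data. Levels per kilobase were compared as log2(CPM per kb + 0.1) with an exact permutation test (two-sided, over the 64 sign patterns of the differences). Relations used exact permutation over 720 pairings. Benjamini-Hochberg adjustment covered all genes, 45 pairs or 20 relations, with a threshold of 0.05. Named were the 10 genes, the 3 highest, the lowest measured and those with at most 3 counts of each list, the 3 genes of most similar pattern for the 2 most variable genes, and others where stated. The 10 genes and all lists were chosen with earlier results of these data known. Protein sequences were not used here.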

Additional observations from a re-analysis of the deposited data

Results flagged for a closer look

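Across 19 measures (the CPM of each of the 10 genes, their share of counts, and the summed CPM of 8 lists), the gap from the most extreme culture to the next was taken as a share of the whole range. It exceeded Dixon's 95% critical value for 6 samples once, where chance flags about 1 in 20 groups and 0.95 would be expected. The endothelial marker sum was 100.2 CPM in replicate 5, 30.2 CPM in the next highest culture, replicate 4, and 6.31 CPM in the lowest, replicate 1. The gap between the upper values, as a share of the whole range, was 0.745. None of the 10 matrix genes exceeded the critical value, and the nearest was Thbs2 at 0.587.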

How the results depend on the processing

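With 5 libraries the exact sign-flip test cannot go below p = 0.0625, so leaving out any 1 replicate gave 0 of 45 pairs past the threshold, which says nothing about stability. The number was 35 with a pseudocount of 1 and with GENCODE transcript lengths. The difference of Thbs1 over Sparcl1 (0.07) was -0.24 with transcript lengths and lay between -0.29 and 0.64 across fits without 1 replicate; it was negative without replicates 3, 4, 5 or 6 (-0.09, -0.10, -0.29 and -0.03). That of Sparcl1 over Thbs2 (0.13) lay between -0.19 and 0.53, negative without replicate 1 (-0.19) or 2 (-0.04). Of the 20 relations, 3 passed with mean log2 marker levels against 0 otherwise. Without the 2 libraries farthest from the marker median, 5 relations changed sign, to 0.400 for Sparc, 0.295 for Sparcl1, -0.363 for Postn and -0.197 for Thbs1 with fibroblast markers, and to 0.158 for Tnc with glial markers; the cause was not tested. The chi-square test called 11436 genes with DESeq2 size factors and 13488 of 26854 without the low-count filter, against 11444, and Thbs4 was called too without the filter or without replicate 1. Mean CPM of each gene moved by less than 1 SD under TMM or DESeq2 scaling. Without replicate 5 it was 1123 for Fn1 and 735 for Spp1, against 1661 and 1045. The ranges without replicates 1 and 5 were added after the data were seen. Depth limits Thbs4, Ccn6, Ibsp and Itgb6.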
